A study of Mus musculus with 6 samples.

Results

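The genes described here drive a cell from G1 into S phase. They are the D cyclins Ccnd1, Ccnd2 and Ccnd3, the E cyclins Ccne1 and Ccne2, the kinases Cdk4, Cdk6 and Cdk2, the retinoblastoma gene Rb1 and the transcription factor E2f1. They were chosen by symbol, and all 10 were found among the 35429 genes of the restored expression table. The libraries come from bone marrow-derived macrophages (BMDMs) grown with M-CSF from the femurs of C57BL/6 mice. There were 3 Ctrl libraries, made without ZA, and 3 ZA libraries, taken 12 h after stimulation with zoledronic acid (ZA), a bisphosphonate given against bone resorption. The methods describe the wild-type mice as female and 6 weeks old when obtained, without naming those used for these cultures. The ZA concentration for these libraries, the number of donor mice and whether cultures shared a mouse were not given in the sources used here, so the p-values below measure the spread between libraries, which may be partly technical.

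Mitogens such as M-CSF raise the D cyclins, which bind Cdk4 or Cdk6 and phosphorylate the retinoblastoma protein. This frees E2F factors, which switch on Ccne1, Ccne2 and the genes of DNA replication, and cyclin E with Cdk2 completes the phosphorylation. Macrophage precursors divide in M-CSF, while CDK inhibitors of the Cip/Kip and INK4 families hold the kinases back.

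Each library held between 41230600 and 42155808 fragments. Expression is given as FPKM, fragments scaled by gene length and library total, which allows levels to be compared between genes. All 8 macrophage markers were above 1 FPKM on average, with Csf1r, the M-CSF receptor, between 767 and 848 FPKM. T cell, B cell and NK cell markers were under 1 FPKM in 7 of 8 cases, Cd4 being the other. The summed FPKM of 12 neutrophil and myeloid progenitor markers lay between 37.7 and 53.3 in Ctrl and between 33.8 and 39.0 in ZA libraries, with Ly6g at 0 in all 6. The summed FPKM of 7 fibroblast and endothelial markers lay between 19.97 and 35.8 in Ctrl and between 17.5 and 25.5 in ZA libraries, and both sums were highest in Ctrl 1. In bulk RNA, fewer cells of a type and less RNA per cell cannot be told apart.

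In untreated BMDMs the 10 genes spanned from 0.562 to 73.2 FPKM in mean level. Cdk4 stood first at 73.2 ± 1.55 FPKM (SD, n = 3), followed by Ccnd3 at 15.01 ± 0.269 FPKM. E2f1 (11.8 ± 0.767), Ccnd1 (11.3 ± 0.911) and Rb1 (10.8 ± 0.148) came next, and neighbours in this order overlapped between libraries. Cdk2 followed at 10.3 ± 0.0733 FPKM and Cdk6 at 4.43 ± 0.0849 FPKM. The E cyclins and Ccnd2 were lowest, with Ccne1 at 1.66 ± 0.108, Ccne2 at 0.631 ± 0.0430 and Ccnd2 at 0.562 ± 0.166 FPKM. Ccne2 and Ccnd2 overlapped, and all other neighbours were separated in the 3 Ctrl libraries.

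**Figure D1:**
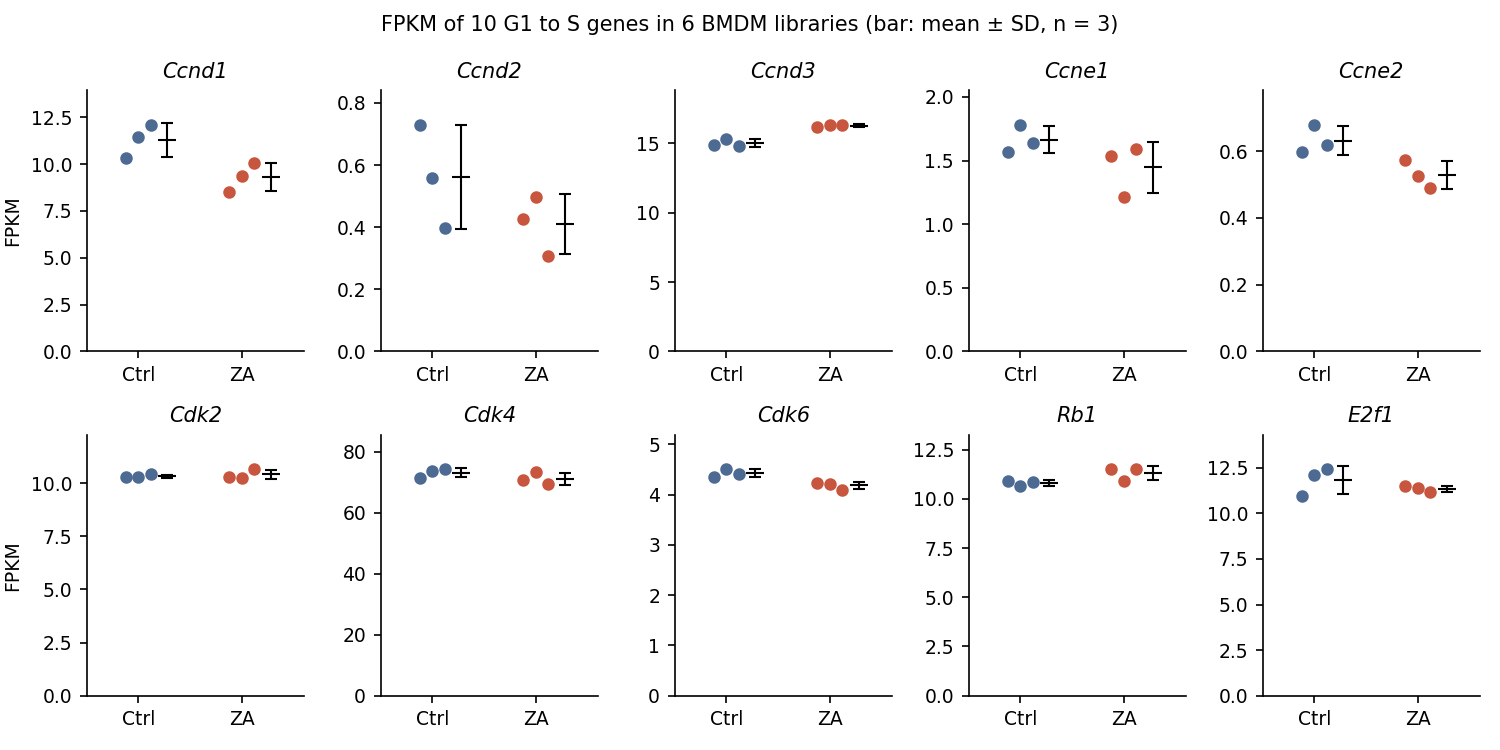
FPKM (linear axis from 0, a separate scale for each gene) of the 10 genes in Ctrl and ZA libraries, 1 point for each library in the order 1 to 3, with the mean and SD of each group beside it. Ccnd1 lay between 10.3 and 12.1 FPKM in Ctrl and between 8.52 and 10.05 FPKM in ZA libraries, Ccnd3 between 14.8 and 15.3 and between 16.2 and 16.4 FPKM, while the groups of Cdk2, Cdk4, Rb1 and E2f1 overlapped.

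After ZA none of these genes passed the main test, which did not pair libraries. The D cyclins Ccnd1 and Ccnd3, with the smallest unadjusted limma p among those tested, differed in opposite directions. With libraries of the same number taken as a block (the replicate block), Ccnd1 alone passed, with a limma adjusted p of 0.0343. Genes with a mean of at least 1 FPKM were compared as log2(FPKM + 1) with limma, which covered 9800 genes and 8 of the 10 members. Ccnd2 and Ccne2 were below this level in the mean of all libraries. Of the 8, 0 had an adjusted p under 0.05 (limma with Benjamini-Hochberg adjustment over all genes), beside 0.367% of all genes tested. At an unadjusted p under 0.05 there were 2 of 8, Ccnd1 with lower and Ccnd3 with higher values, beside 12.3% of all genes, 7.5% in the higher and 4.85% in the lower direction. That split of 735 higher and 475 lower genes became 508 and 664 after centring each library on its median and 574 and 589 after quantile normalization, while Ccnd1 stayed lower and Ccnd3 higher under both. With limma-voom on recovered fragments, an alternative, 3 of the 8 were at an unadjusted p under 0.05, beside 1312 of all 9800 genes. They were Ccnd1, Ccnd3 and Cdk6, and again 0 passed after adjustment. Among the 8 tested, the Ctrl and ZA libraries did not overlap for Ccnd1, Ccnd3 and Cdk6, beside 18.1% of all genes tested, and they did not overlap for Ccne2 either, below the level for testing. The median log2 fold change of the 8 was -0.05, beside 0.01 for all genes tested.

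**Figure D2:**
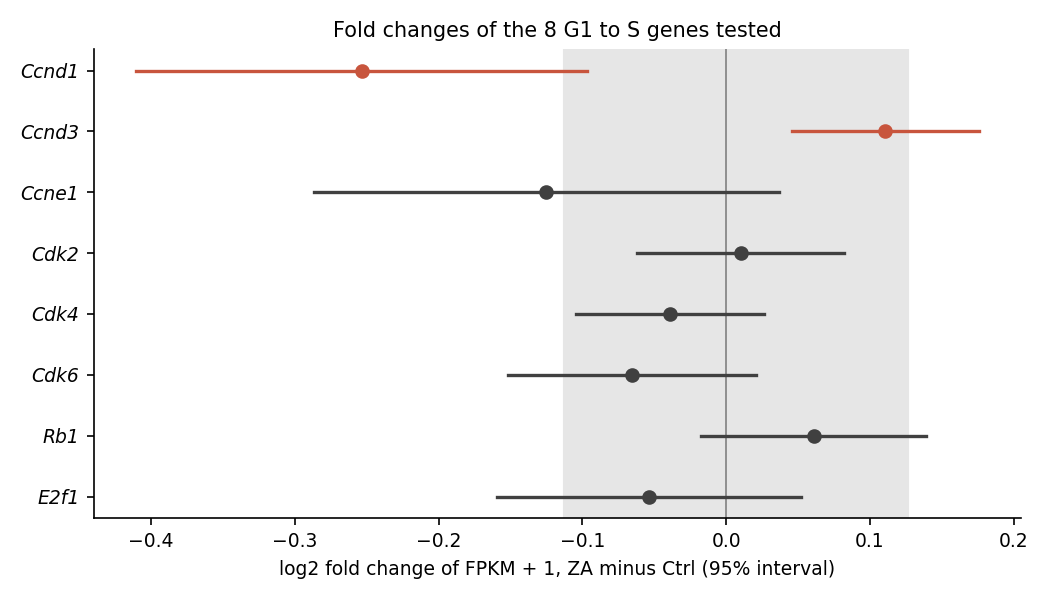
Log2 fold change of FPKM + 1 (ZA minus Ctrl, points) with its 95% interval (lines) for the 8 genes tested. Red marks an unadjusted p under 0.05, and the grey band runs from the 5th to the 95th percentile of all 9800 genes, -0.11 to 0.13. Ccnd1 is at -0.25, outside the band, and Ccnd3 at 0.11, inside it.

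Ccnd1 encodes cyclin D1, the D cyclin most closely tied to mitogen signals. It measured 10.3, 11.5 and 12.1 FPKM in Ctrl 1, 2 and 3, and 8.52, 9.38 and 10.05 FPKM in ZA 1, 2 and 3. Every ZA library was below every Ctrl library, and the mean went from 11.3 ± 0.911 to 9.31 ± 0.768 FPKM, a difference of -17.5%. The log2 fold change was -0.25 (SE 0.068, 95% interval -0.41 to -0.10, limma unadjusted p = 0.00573, adjusted p = 0.203). The values rest on 1323 to 1906 fragments in each library. LTO1, on the other strand, shares 23.4% of the annotated exon bases of Ccnd1 in GENCODE vM21, and it measured between 4.27 and 4.501 FPKM in Ctrl and between 4.43 and 4.72 FPKM in ZA libraries. Whether counting used strand was not given in the sources used here.

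Ccnd3 encodes cyclin D3, prominent in blood cell lineages. It measured 14.9, 15.3 and 14.8 FPKM in Ctrl 1 to 3, and 16.2, 16.4 and 16.3 FPKM in ZA 1 to 3. All ZA libraries were above all Ctrl libraries, by a margin that was small but wider than the spread within the groups, whose SDs were 0.269 and 0.103 FPKM. The mean differed by 8.49%, with a log2 fold change of 0.11 (SE 0.028, 95% interval 0.05 to 0.18, limma unadjusted p = 0.00436, adjusted p = 0.178). Ccnd2, which encodes cyclin D2, measured 0.731, 0.557 and 0.398 FPKM in Ctrl and 0.427, 0.499 and 0.308 FPKM in ZA libraries, with overlapping groups and 107 to 251 fragments in each. Its log2 fold change by limma-voom without a filter on level, an alternative chosen after the data had been seen, was -0.44 (SE 0.23, unadjusted p = 0.0837, adjusted p = 0.620), beside 9.01% of all 19375 genes at an unadjusted p under 0.05 in that fit.

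Summed over the 3 genes, the D cyclin level overlapped between the groups, while the share of Ccnd1 in it did not. The sum was 25.95, 27.3 and 27.3 FPKM in Ctrl 1 to 3, and 25.1, 26.2 and 26.7 FPKM in ZA 1 to 3. The groups overlapped, with a difference of -0.858 FPKM (exact permutation test, two-sided, p = 0.3). Ccnd1 made up 39.7%, 41.9% and 44.3% of this sum in Ctrl 1 to 3, and 33.9%, 35.7% and 37.7% in ZA 1 to 3. The ZA libraries were all below the Ctrl libraries, by 6.23 percentage points on average. The exact permutation test gave p = 0.1, the smallest that 3 against 3 libraries can give. Ccnd1 was lower and Ccnd3 higher in every ZA library, and Ccnd2 added little to the sum. The separation of the share, and of the ratio below, therefore restates those gene values and is no further finding. The share of Ccnd3 went from 55.9% ± 1.63 to 62.6% ± 1.61 (SD, n = 3), and that of Ccnd2 was between 1.154% and 2.81% in all libraries. Put as a ratio, Ccnd3 was between 1.22 and 1.45 times the level of Ccnd1 in Ctrl and between 1.63 and 1.90 times in ZA libraries.

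**Figure D3:**
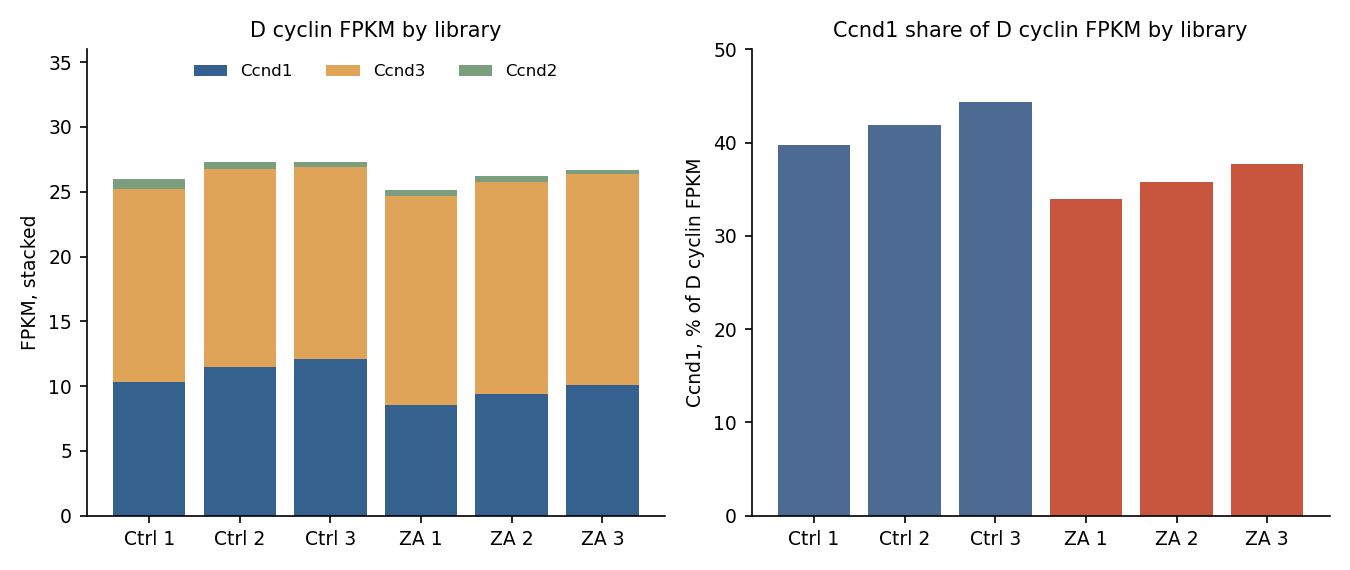
Left, FPKM of Ccnd1, Ccnd3 and Ccnd2 stacked for each of the 6 libraries. Right, the share of Ccnd1 in that sum, which was between 39.7% and 44.3% in Ctrl and between 33.9% and 37.7% in ZA libraries, whereas the stacked total ran from 25.1 to 27.3 FPKM over all 6.

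Cdk4 and Cdk6, the kinases that D cyclins activate, were present at very different levels. Cdk4 measured 71.4, 73.6 and 74.5 FPKM in Ctrl 1 to 3, and 70.7, 73.3 and 69.6 FPKM in ZA 1 to 3, with overlapping groups. Its log2 fold change was -0.04 (95% interval -0.10 to 0.03, limma unadjusted p = 0.208, adjusted p = 0.615). Tspan31, on the other strand, shares 19.7% of the annotated exon bases of Cdk4 and lay between 42.6 and 46.1 FPKM, so the level of Cdk4 is uncertain if strand was not used in counting.

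Cdk6 measured 4.35, 4.52 and 4.42 FPKM in Ctrl and 4.24, 4.21 and 4.10 FPKM in ZA libraries. These groups did not overlap, but the log2 fold change was only -0.07 (95% interval -0.15 to 0.02, limma unadjusted p = 0.117, adjusted p = 0.517). The ratio of Cdk4 to Cdk6 was between 16.3 and 16.8 in Ctrl and between 16.7 and 17.4 in ZA libraries. Per length, Cdk4 thus outweighed Cdk6 in every library.

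The promoters of both kinases hold the E-box CACGTG, a palindrome that Myc and Max bind, and they are shown because the pair differ in how often they hold it. RefSeq promoter windows, from 250 bases before to 50 bases after a gene's start in build GRCm38.p6, were found for 6 of the 10 genes (Ccnd3 with 2 windows, Ccne1, Cdk2, Cdk4, Cdk6 and E2f1) and not for Ccnd1, Ccnd2, Ccne2 and Rb1. The E-box is in the windows of Cdk4 and Cdk6 among these 6 genes and in 7.15% of all 32851 windows. The Cdk4 window holds it 4 times, beginning 172, 118, 98 and 11 bases before the start, and 8 of all windows hold it at least 4 times. The whole Cdk4 window (chr10:127063285-127063584, plus strand) and 60 bases of the Cdk6 window (chr5:3343643-3343702, plus strand) follow, 5′ to 3′, with E-boxes in capitals.
Cdk4: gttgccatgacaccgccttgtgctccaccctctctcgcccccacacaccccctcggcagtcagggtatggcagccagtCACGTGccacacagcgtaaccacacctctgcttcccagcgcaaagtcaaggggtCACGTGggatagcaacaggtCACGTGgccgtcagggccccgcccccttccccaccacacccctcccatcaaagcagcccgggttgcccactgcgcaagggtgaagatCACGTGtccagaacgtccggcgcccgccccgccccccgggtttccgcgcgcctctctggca
Cdk6: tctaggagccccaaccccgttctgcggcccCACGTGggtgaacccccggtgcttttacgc

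Myc itself, a growth-driving transcription factor of the M-CSF response, measured 4.18, 3.40 and 3.55 FPKM in Ctrl 1 to 3, and 2.74, 3.05 and 3.32 FPKM in ZA 1 to 3. Its ZA libraries were all below its Ctrl libraries, with a log2 fold change of -0.22 (SE 0.076, limma unadjusted p = 0.0186, adjusted p = 0.301). An effect of Myc on Cdk4 or Cdk6 was not tested. A match of letters is a description and not evidence of binding.

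Cdk2, the partner of cyclin E, was close to level across the libraries. It measured 10.3, 10.3 and 10.4 FPKM in Ctrl and 10.3, 10.3 and 10.7 FPKM in ZA libraries. The log2 fold change was 0.01 with a 95% interval of -0.06 to 0.08 (limma unadjusted p = 0.757, adjusted p = 0.927). The sign turned with centring and with quantile normalization.

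Ccne1, which encodes cyclin E1, measured 1.57, 1.78 and 1.64 FPKM in Ctrl and 1.54, 1.22 and 1.59 FPKM in ZA libraries. ZA 2 was the lowest, ZA 3 lay within the Ctrl range, and the log2 fold change was -0.12 (SE 0.070, 95% interval -0.29 to 0.04, limma unadjusted p = 0.113, adjusted p = 0.509). Without ZA 2 it was -0.06. Only 99 to 145 fragments per library stood behind Ccne1. Ccne2, which encodes cyclin E2, measured 0.597, 0.679 and 0.617 FPKM in Ctrl and 0.573, 0.524 and 0.488 FPKM in ZA libraries, from 67 to 92 fragments. All its ZA values were below all its Ctrl values, but the fold change by limma-voom without the filter on level was -0.26 on the log2 scale (SE 0.19, unadjusted p = 0.202, adjusted p = 0.751), and on the log2(FPKM + 1) scale without that filter limma gave -0.09 (unadjusted p = 0.0336, adjusted p = 0.520). The summed level of both E cyclins was between 2.17 and 2.46 FPKM in Ctrl and between 1.74 and 2.11 FPKM in ZA libraries. Ints8, on the other strand, shares 17.4% of the annotated exon bases of Ccne2, at 4.30 to 4.71 FPKM.

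Rb1, which encodes the retinoblastoma protein that holds E2F in check, measured 10.9, 10.6 and 10.8 FPKM in Ctrl and 11.5, 10.9 and 11.5 FPKM in ZA libraries. Its groups overlapped through ZA 2, and the log2 fold change was 0.06 (95% interval -0.02 to 0.14, limma unadjusted p = 0.111, adjusted p = 0.507). Without ZA 2 the limma unadjusted p of Rb1 was 0.0445 (log2 fold change 0.09). On the other strand, Lpar6 shares 6.78% of the annotated exon bases of Rb1 and Rcbtb2 shares 8.11%. Lpar6 lay between 32.0 and 33.4 FPKM and Rcbtb2 between 26.9 and 29.4 FPKM. The level of Rb1 is therefore uncertain if strand was not used in counting. E2f1, an activating E2F, measured 10.97, 12.1 and 12.4 FPKM in Ctrl and 11.5, 11.4 and 11.2 FPKM in ZA libraries. The ZA libraries were close together and inside the Ctrl range, since Ctrl 1 was below all of them, and the log2 fold change was -0.05 (95% interval -0.16 to 0.05, limma unadjusted p = 0.274, adjusted p = 0.675). Without Ctrl 1 it was -0.10 (unadjusted p = 0.0244, adjusted p = 0.419), and without Ctrl 3 it was -0.02 (unadjusted p = 0.689). The 9 tested pocket proteins and E2F partners, of 11 listed, had 0 genes at an unadjusted p under 0.05, beside 12.3% of all genes. Their median log2 fold change was -0.01. Those with the largest moderated statistics were Tfdp1 (-0.09) and Tfdp2 (0.06), which encode DP partners of the E2Fs, and E2f4 (-0.07), a repressive E2F.

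The 5 genes whose levels over the 6 libraries were most like those of E2f1, after scaling each gene to a mean of 0 and an SD of 1, were Pole4, Slc40a1, Cnpy2, Gm38426 and Birc5. Their root mean square differences from E2f1 were between 0.207 and 0.283 SD. Pole4 encodes a subunit of a DNA polymerase, Slc40a1 the iron exporter ferroportin and Birc5 survivin, a protein of dividing cells. Among the other members Cdk4 was nearest to E2f1, at rank 253 of the genes tested, and Rb1 farthest, at rank 8137.

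Of the CDK inhibitors, 1 of 5 tested passed the test, in the lower direction, beside 0.163% of all genes tested. Cdkn1c, which encodes p57, fell from 66.8, 67.2 and 69.1 FPKM in Ctrl 1 to 3 to 61.3, 58.5 and 58.6 FPKM in ZA 1 to 3. The groups were well apart, and the log2 fold change was -0.18 (SE 0.028, limma adjusted p = 0.0487), just inside the threshold. It passed without ZA 1 but not without any other library, where the adjusted p was 0.142, 0.200, 0.123, 0.190 and 0.147 without Ctrl 1, Ctrl 2, Ctrl 3, ZA 2 and ZA 3. The limma adjusted p of Cdkn1c was 0.231 without a filter on level and 0.133 with a variance prior without a trend. After quantile normalization it was 0.0577. Cdkn1a, which encodes p21, measured 19.5, 19.9 and 19.8 FPKM in Ctrl and 23.7, 22.6 and 21.8 FPKM in ZA libraries. Its ZA libraries were all higher, with a log2 fold change of 0.19 (SE 0.034, limma unadjusted p = 0.000439, adjusted p = 0.0761). Against Ccnd1, the level of Cdkn1a was 1.63 to 1.90 times in Ctrl and 2.17 to 2.78 times in ZA libraries. Cdkn1b, which encodes p27, differed by 0.06, and the INK4 genes Cdkn2a and Cdkn2b were below 1 FPKM in all libraries. The other INK4 genes, Cdkn2c and Cdkn2d, averaged 7.33 and 9.01 FPKM in Ctrl and 7.55 and 9.20 FPKM in ZA libraries. Their log2 fold changes were 0.04 and 0.03. Gm44732, on the other strand, shares 30.7% of the annotated exon bases of Cdkn1c and was not analysed here.

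Of the 6 pathway lists, genes that E2F drives for DNA replication had the most members with lower values in ZA libraries, while E2f1 itself did not pass the test. Of 20 listed, 16 were tested, 10 of these had lower values at an unadjusted p under 0.05 and 0 had higher values, beside 4.85% of all genes lower and 7.5% higher. After adjustment 3 of 16 remained, all lower, beside 0.163% of all genes lower. The median log2 fold change of the 16 was -0.13, beside 0.01 over all genes tested. The count of 10 was between 8 and 10 when each library was left out in turn, but the count after adjustment was then between 0 and 1.

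The 3 that passed after adjustment were Pcna, Mcm5 and Rrm2, among 13 of the 16 that were lower. Pcna, the sliding clamp of DNA polymerases, fell from 177, 178 and 180 FPKM in Ctrl to 162, 158 and 157 FPKM in ZA libraries, a log2 fold change of -0.16 (SE 0.022, limma adjusted p = 0.0453). Mcm5, a subunit of the replicative helicase, fell from 6.26, 5.99 and 5.79 to 4.89, 4.46 and 4.65 FPKM, a log2 fold change of -0.31 (SE 0.045, limma adjusted p = 0.0487). Rrm2, the small subunit of ribonucleotide reductase, which makes deoxyribonucleotides, fell from 4.23, 4.19 and 3.89 to 3.27, 3.01 and 3.07 FPKM, a log2 fold change of -0.31 (SE 0.047, limma adjusted p = 0.0487). In each of these 3 every ZA library was below every Ctrl library. That held for 9 of the 16 tested replication genes, beside 662 of all 9800 genes tested. Among the 9 were Uhrf1 (-0.29, limma adjusted p = 0.0771) and Tk1 (-0.30, limma adjusted p = 0.113), which did not pass. The calls of Pcna, Mcm5 and Rrm2 rest on all 6 libraries and on the settings. Without a filter on level the limma adjusted p was 0.196 for Pcna and 0.231 for Mcm5 and Rrm2. With a variance prior without a trend it was 0.133 for Pcna and 0.0995 for Mcm5 and Rrm2. After quantile normalization Pcna did not pass (limma adjusted p = 0.0522). Without Ctrl 1, Ctrl 2, Ctrl 3, ZA 1, ZA 2 and ZA 3 in turn, the limma adjusted p was 0.142, 0.200, 0.0916, 0.0518, 0.190 and 0.144 for Mcm5, and 0.153, 0.200, 0.0857, 0.0518, 0.190 and 0.147 for Rrm2. Pcna passed without ZA 1, and its adjusted p was between 0.105 and 0.200 without each of the others.

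Of the 6 helicase subunits, a set named after their values had been seen, all had lower means in ZA libraries. Over all genes tested, 4221 of 9800 had a lower log2 value. Mcm2 measured -0.17, Mcm3 -0.10, Mcm4 -0.09, Mcm6 -0.21 and Mcm7 -0.24 on the log2 fold change scale. These 5 were at an unadjusted p under 0.05, beside 4.85% of all genes lower at that p, with limma adjusted p between 0.113 and 0.397. As shares of the Ctrl mean, the ZA means of the 6 subunits lay between 77.6% for Mcm5 and 93.2% for Mcm4, beside 95.9% for E2f1.

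**Figure D4:**
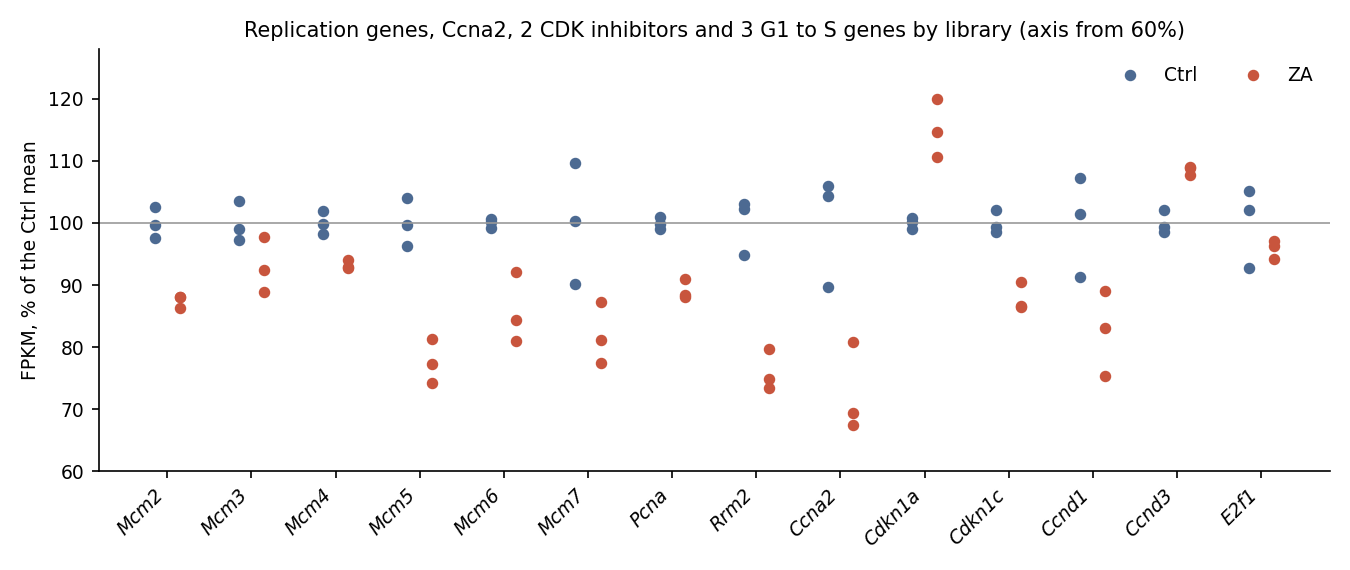
FPKM of each library as a percentage of the gene's Ctrl mean (axis from 60%, line at 100%) for the 6 helicase subunits, Pcna, Rrm2, Ccna2, 2 CDK inhibitors and 3 of the G1 to S genes. ZA libraries of Mcm5 lie between 74.2% and 81.4%, those of Ccnd1 between 75.4% and 89.0% and those of E2f1 between 94.2% and 97.1%, inside the Ctrl range of E2f1, while Cdkn1a lies between 111% and 120%.

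Promoter sequences are shown here because sites for E2F stand in many of these genes. The windows were searched on both strands for the E2F sites TTTCGCGC, TTTGGCGC, TTTCCCGC and TTTGCCGC. At least 1 was in 9 of 17 replication genes with a window, in 5 of 9 pocket protein and E2F genes, and in 1 of 6 G1 to S genes, Cdk2, beside 2.26% of all 32851 windows. In Mcm5 and Mcm6 a TTTCGCGC and a TTTGGCGC on opposite strands share 4 bases. The sequences below are 60 bases each, 5′ to 3′ on the strand of the gene, with the sites in capitals, from Mcm5 (chr8:75109330-75109389, plus strand), Mcm6 (chr1:128359782-128359841, minus strand), Cdk2 (chr10:128705158-128705217, minus strand), Tfdp1 (chr8:13338682-13338741, plus strand) and Rbl1 (chr2:157204519-157204578, minus strand).
Mcm5: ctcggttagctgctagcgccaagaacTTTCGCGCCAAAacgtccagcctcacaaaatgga
Mcm6: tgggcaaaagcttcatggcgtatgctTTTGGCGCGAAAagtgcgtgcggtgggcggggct
Cdk2: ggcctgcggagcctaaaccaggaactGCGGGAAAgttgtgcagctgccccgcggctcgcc
Tfdp1: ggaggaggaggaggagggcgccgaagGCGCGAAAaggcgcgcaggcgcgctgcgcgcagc
Rbl1: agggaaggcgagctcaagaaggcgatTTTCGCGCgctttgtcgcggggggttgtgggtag

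Genes with a site had unlike log2 fold changes, and a part of the sites in the differences was not tested. Mcm5 and Mcm6, with the paired sites beginning 153 and 110 bases before the start, had log2 fold changes of -0.31 and -0.21, whereas Cdk2, whose site begins 140 bases before the start, and Rbl1, which encodes the pocket protein p107, were at 0.01 and -0.02. The other tested replication genes with a site were Uhrf1 (-0.29), Mcm7 (-0.24), Mcm3 (-0.10), Cdt1 (-0.07) and Pola1 (-0.06). Pcna and Rrm2, which passed the test, are not among the 9 replication genes with a site. Their absence says only that these letters were not found in a window.

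Later cyclins were tested for all 5 listed genes, of which 0 passed after adjustment and 2 had lower values at an unadjusted p under 0.05, beside 4.85% of all genes. Ccna2, which encodes the S phase cyclin A2, measured 2.61, 2.21 and 2.57 FPKM in Ctrl and 1.66, 1.99 and 1.71 FPKM in ZA libraries, with a log2 fold change of -0.31 (limma unadjusted p = 0.00152, adjusted p = 0.110). Ccnb2, a mitotic cyclin, differed by -0.23 and Ccnf, a cyclin that acts in protein degradation, by -0.10. Exosc9, on the other strand, shares 12.5% of the annotated exon bases of Ccna2 and lay between 13.3 and 14.8 FPKM. The level of Ccna2 is therefore uncertain if strand was not used in counting.

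Genes that activate CDKs or degrade G1 cyclins gave 0 of 12 at an unadjusted p under 0.05, beside 12.3% of all genes. Their median was -0.00 on the log2 scale. Skp2, which marks p27 for degradation, had the largest statistic with a log2 fold change of -0.10 (limma unadjusted p = 0.0721, adjusted p = 0.453). Ccnh, the cyclin of the CDK-activating kinase, differed by -0.05, and Fbxo31, which marks cyclin D1 for degradation, by 0.04.

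Upstream of the D cyclins, 0 of 10 genes of the M-CSF list passed after adjustment. Csf1r measured 777, 767 and 772 FPKM in Ctrl and 825, 832 and 848 FPKM in ZA libraries, with a log2 fold change of 0.11 (SE 0.019, limma adjusted p = 0.0701). Its ZA libraries were all higher, in the opposite direction to Ccnd1. Stat5a, a factor downstream of the receptor, differed by 0.12 (limma unadjusted p = 0.0624, adjusted p = 0.438), and Myc is given above.

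**Figure D5:**
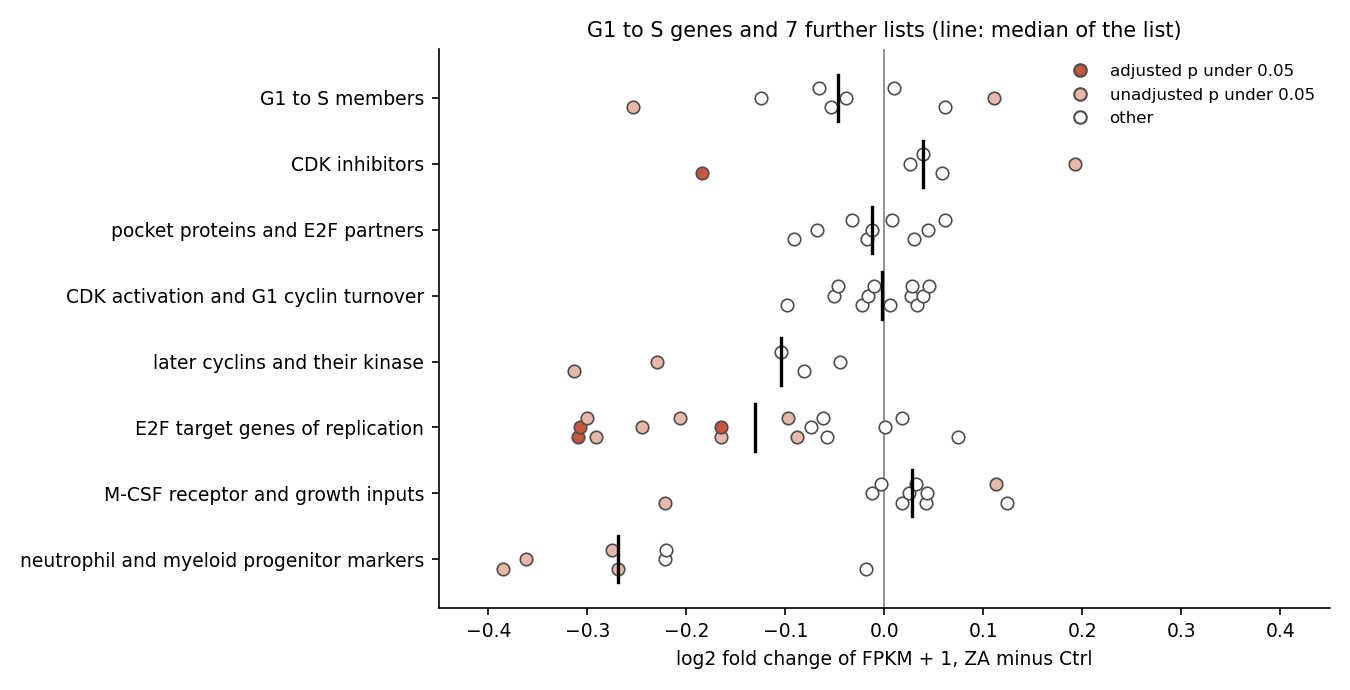
Log2 fold change of FPKM + 1 (ZA minus Ctrl) of every tested gene in the G1 to S set, 6 lists of its pathway and a list of neutrophil and myeloid progenitor markers, with the median of each list as a line. Dark red marks an adjusted p under 0.05 and light red an unadjusted p under 0.05. The median is -0.13 for the replication genes, -0.05 for the G1 to S genes and -0.27 for the neutrophil and progenitor markers.

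Among 12 neutrophil and myeloid progenitor markers, 7 were tested and 0 passed after adjustment. At an unadjusted p under 0.05, 4 of the 7 had lower values, beside 4.85% of all genes, and the median log2 fold change was -0.27. These were Elane, Mpo, Prtn3 and Ngp. Of the other genes tested, S100a8 and S100a9 were each at -0.22 and Kit, a progenitor marker, at -0.02. Of 7 fibroblast and endothelial markers, 5 were tested, 1 had lower values at that p, and the median was -0.20. Of the 8 macrophage markers, 3 had higher values, beside 7.5% of all genes, with a median of 0.08. Ctrl 1 was the library with the highest sums of the neutrophil and progenitor and the fibroblast and endothelial lists. Without Ctrl 1, the neutrophil and progenitor markers had a median of -0.15 with 3 of 7 lower. The fibroblast and endothelial markers then had a median of -0.09 with 0 of 5 lower. Without Ctrl 3 the fibroblast and endothelial markers had a median of -0.39 with 4 of 5 lower, and without ZA 1 and ZA 3 medians of -0.31 and -0.08. In the comparison without Ctrl 1, 9 of the 16 replication genes had an unadjusted p under 0.05 in the lower direction, and the log2 fold changes of Ccnd1 and Ccnd3 were -0.31 and 0.11. The shares of all genes at that p in these fits without a library are not given here. In the limma fit with the replicate block, all 5 tested fibroblast and endothelial markers were lower at an unadjusted p under 0.05. So were 5 of the 7 neutrophil and progenitor markers, beside 600 of all 9800 genes tested. Of the 8 macrophage markers 4 were higher in that fit, beside 905 of all genes. The part of the other cells in these differences was not tested.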

How the data were processed

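RNA from 3 Ctrl and 3 ZA cultures was sequenced as 150 bp paired-end reads, and groups were taken from the sample labels. The methods name the VAHTS library kit, and the labels also name a SMARTER kit. The authors deposited 1 table of FPKM values, which are fragments scaled by gene length and library total. The submitters' processing notes name the build mm9. The aligner, the counting program and the annotation are not given in the sources used here.

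In 35423 of 35434 rows the symbol and the 6 values run together. They were split where the digits allow a symbol and 6 values and where the values correspond to whole fragment numbers, and 5 rows were left out. All 11 intact rows were restored identically. A gene of 3422.5 bases, the median, with 3 fragments has an FPKM of 0.0210, and this covers counting error only.

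Two-sided tests used limma 3.58.1 (R 4.3.3) on log2(FPKM + 1), with a trended variance prior, for 9800 genes averaging at least 1 FPKM, so that fold changes of low genes are understated. Adjusted p-values are Benjamini-Hochberg over all genes tested, and the threshold was 0.05. Sums and shares were compared with exact permutation tests over libraries. The fit was tested on simulated data whose changed genes differed more than those named here, so its power for small differences was not tested. Libraries of one group were not duplicates, with a chi-square per gene of 3.52 to 9.73. The genes, lists and tests were chosen with earlier results of these data known. Named genes are the 10 members, each adjusted call and the 3 largest moderated statistics of 6 pathway lists, and the 5 genes most like E2f1. Other genes were named after their values had been seen. Promoter sequences come from RefSeq tables of build GRCm38.p6. Python 3.11.15, NumPy 2.4.6, pandas 2.3.3 and Matplotlib 3.10.9 were used.

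Alternatives tried were the replicate block, limma-voom on recovered fragments, dropping each library, centring, quantile normalization, an untrended variance prior, a pseudocount of 0.1, filters of 0 and 5 FPKM, and, after the data had been seen, limma-voom without a filter.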

Additional observations from a re-analysis of the deposited data

How the results depend on the processing

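The number of genes called over all genes, 36, depended on the model. It was 1 without a filter on level, 20 after quantile normalization, 1 with a variance prior without a trend, 132 with limma-voom on recovered fragments, and 77 with limma-voom without a filter, which was chosen after the data had been seen. Leaving out each library gave 0 to 25 called genes, with 0 without ZA 2, where 973 genes had an unadjusted p under 0.05. The cause was not tested. With the replicate block 78 genes were called, 32 of them shared with the 36, and Ccnd1 had a limma adjusted p of 0.0343. Libraries with the same number had correlations of 0.284, 0.0393 and 0.280 in their deviations. From library 1 to 3, the fibroblast and endothelial sum measured 35.8, 27.6 and 19.97 FPKM in Ctrl and 25.5, 22.1 and 17.5 FPKM in ZA. Ccnd1 rose in that order in both groups, while the neutrophil and progenitor sum fell in that order only in Ctrl. Whether the numbers mark pairs is not given in the labels, and the main test did not pair the libraries. The block lowered the SE of Ccnd1 from 0.068 to 0.033 and changed the call of no other G1 to S gene. With it the exact p was 0.25, the smallest that 3 pairs can give, for the D cyclin sum (-0.858 FPKM) and for the share of Ccnd1 (-6.23 percentage points).

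Ccnd1 and Ccnd3 kept their direction and an unadjusted p under 0.05 in all 15 alternatives, with log2 fold changes between -0.31 and -0.20 and between 0.09 and 0.12. The log2 fold change of Cdk2 turned to -0.0023 with centring, -0.0057 with quantile normalization and -0.0067 without ZA 3, the lowest of -0.0067 to 0.019 when each library was left out. That of Birc5 turned to 0.011 without Ctrl 3, the highest of -0.17 to 0.011. The count of members whose groups do not overlap was 5 of all 10 with centring, beside Ccnd1, Ccnd3, Cdk6 and Ccne2 in the main setting. It was 3 with quantile normalization, which covers only the 8 genes tested. The shares of all genes that do not overlap in these settings are not given here. The D cyclin sum differed by -1.31 to -0.408 FPKM and the share of Ccnd1 by -7.37 to -5.06 percentage points when each library was left out. Cdkn1a was called with limma-voom (adjusted p = 0.0372), as was Csf1r (adjusted p = 0.00878). Pcna, Mcm5 and Cdkn1c each passed in 7 of 15 alternatives, and Rrm2 in 5 of 14. With fewer than 100 fragments in a library, Ccne2 and Ccne1 are limited by depth.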
